A study of Mus musculus with 28 samples.

Results

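The genes described here encode proteins of the nuclear lamina and its inner membrane, with the high mobility group (HMG) proteins of chromatin. The group was fixed by name as 10 genes: the lamins Lmnb1, Lmnb2 and Lmna, the inner membrane proteins Lbr and Tmpo, the HMG-box proteins Hmgb1, Hmgb2 and Hmgb3, and the AT-hook proteins Hmga1 and Hmga2. Of these, 8 had at least 1 probe set assigned to them alone, out of 18193 genes measured in all. The brightest probe set of a gene, by its mean across the arrays, gives the values, and the remaining probe sets serve as a check. All 5 probe sets that list Hmgb1 also list the gene model Gm21596, so none was assigned to Hmgb1, and no probe set is listed for Hmga1 in the annotation used here.

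The samples were primary B-cell lymphomas from lymph nodes of C57BL/6 mice with an Emu-myc transgene, in which an immunoglobulin enhancer drives the Myc oncogene in B-lineage cells. Cells of every sample, controls included, carried Bcl2, an inhibitor of apoptosis, from the retrovirus MSCVpuro, were selected with puromycin, and grew on irradiated NIH 3T3 mouse fibroblasts as a feeder layer. Every lymphoma was split into an untreated culture and one kept for 5 days in Adriamycin at 0.05 µg/ml (ADR, also called doxorubicin), which breaks DNA and induces senescence in these cells. With 14 lymphomas and 1 array per culture, there were 28 arrays. The pairs address how transcription differs between proliferating and senescent cells of the same tumour. No label describes a step that removed the feeder cells before RNA extraction, and lymphomas are named below by their identifiers in the labels.

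The nuclear lamina is a meshwork of lamin filaments under the inner nuclear membrane that holds peripheral heterochromatin. B-type lamins stay attached to the membrane, A-type lamins from Lmna also occur in the nuclear interior and are sparse in many lymphoid cells, and loss of lamin B1 is a widely used marker of senescence. HMG-box proteins bend DNA and loosen nucleosomes, while HMGA proteins bind AT-rich DNA and are known components of senescence-associated heterochromatin in fibroblasts.

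After ADR, 6 of the 8 measured members were lower and 2 were higher. Lmnb1, Lmnb2, Lbr, Tmpo, Hmgb2 and Hmgb3 fell in every one of the 14 lymphomas, with changes from -1.87 to -0.71 on the log2 scale, where a difference of 1 is a factor of 2. Hmga2 rose in all 14 lymphomas and Lmna in 13. These calls come from a limma fit on the pairs with Benjamini-Hochberg adjustment over all genes at 0.05, which called 28.7% of all genes, 13.4% lower and 15.3% higher. The share of genes called and lower in every lymphoma was 2.59%, and of those called and higher in every lymphoma 2.87%. A fall of at least 1, which 5 members had (all of these 6 but Lmnb2), was called in 1.84% of genes. At its brightest probe set every member had overlapping groups, while other probe sets of Tmpo, Hmgb2 and Hmga2, given below, did not overlap. Over all genes at their brightest probe set, 0.192% had every ADR array below and 0.0605% every ADR array above all untreated ones. The other probe sets of Tmpo, Hmgb2 and Hmga2 were found among the 24 probe sets of the members. The share without overlap over all probe sets was not counted, so none can be set beside them. The median change over all genes was -0.00. Changes below are ADR minus untreated of the same lymphoma, with the standard error (SE) of the fit over n = 14 pairs. The labels give each lymphoma its own identifier but do not say whether cultures were repeated, so the error is that between lymphomas.

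**Figure D1:**
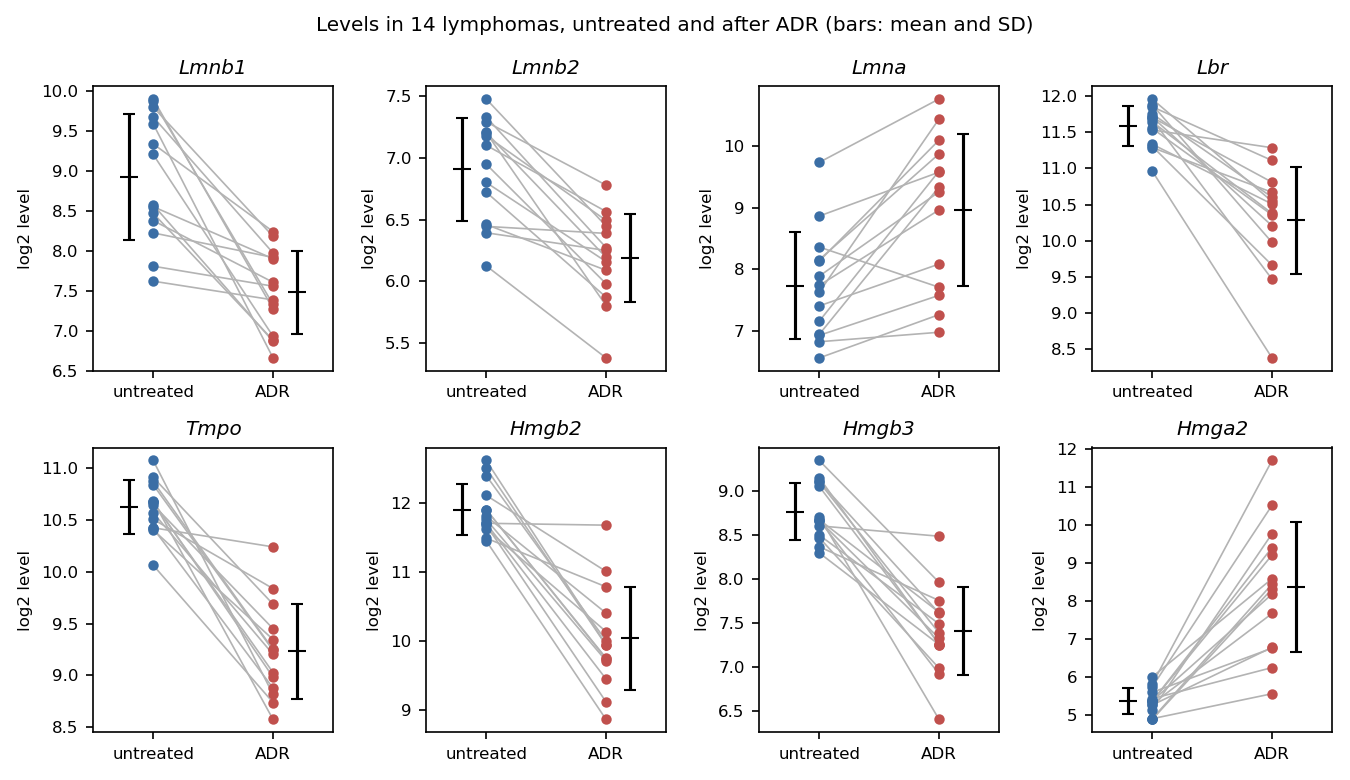
Log2 level of the 8 measured members in the 14 lymphomas, untreated (blue) and after ADR (red). Grey lines join the arrays of a lymphoma, and black bars give the mean and SD of each group. Lines of 6 members run down in all lymphomas, those of Hmga2 run up in all, and 1 of the 14 Lmna lines runs down.

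Promoters are shown here for Hmgb2, Hmgb3, Lbr, Tmpo and Lmnb2, which fell, and for Hmga2, which rose. Genes of the late cell cycle often carry recognisable elements near their start. The CHR core TTTGAA and the CCAAT box are elements through which the DREAM and MuvB complexes and NF-Y act on such genes, and TTCCCGC and TTGGCGC are forms of E2F sites. Of the 10 members, 9 were searched with an entry of the RefSeq promoter table (build GRCm38.p6), with 14 promoters between them. Lmnb1 was not among them, and member entries on its chromosome were left out of the search. Each sequence gives the last 140 bases before the transcription start, 5′ to 3′ on the strand of the gene, with matches to any of these motifs on either strand in capitals.
Hmgb2 (chr8:57511703-57511842, plus strand): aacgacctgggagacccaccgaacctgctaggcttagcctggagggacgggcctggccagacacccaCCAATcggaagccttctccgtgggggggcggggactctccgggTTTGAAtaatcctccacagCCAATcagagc
Hmgb3 (chrX:71555777-71555916, plus strand): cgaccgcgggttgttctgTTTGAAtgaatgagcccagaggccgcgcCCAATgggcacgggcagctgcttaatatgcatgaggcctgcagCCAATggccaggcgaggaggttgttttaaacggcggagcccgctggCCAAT
Lbr (chr1:181842402-181842541, minus strand): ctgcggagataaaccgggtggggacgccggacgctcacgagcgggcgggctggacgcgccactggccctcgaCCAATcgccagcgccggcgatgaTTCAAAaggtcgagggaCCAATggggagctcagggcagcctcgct
Tmpo, promoter 2 (chr10:91170551-91170690, minus strand): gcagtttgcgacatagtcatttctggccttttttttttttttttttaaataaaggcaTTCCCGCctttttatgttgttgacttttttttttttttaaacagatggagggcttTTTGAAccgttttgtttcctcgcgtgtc
Lmnb2, promoter 1 (chr10:80918246-80918385, minus strand): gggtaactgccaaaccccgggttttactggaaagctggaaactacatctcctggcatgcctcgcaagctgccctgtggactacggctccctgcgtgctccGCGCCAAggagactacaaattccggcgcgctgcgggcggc
Hmga2 (chr10:120476470-120476609, minus strand): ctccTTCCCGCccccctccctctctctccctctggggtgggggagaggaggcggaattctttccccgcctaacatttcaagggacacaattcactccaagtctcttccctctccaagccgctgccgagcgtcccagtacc
Matches were searched on both strands from 250 bases before to 50 bases after the start, and TTTGAA was found in 17.9%, CCAAT in 37.4%, TTCCCGC in 4.6% and TTGGCGC in 2.45% of 32851 promoters. TTTGAA and CCAAT occurred together in 6.95% of these promoters and in the promoters of Hmgb2, Hmgb3 and Lbr. In Hmgb2 the printed TTTGAA begins at -30 from the start and lies between CCAAT boxes at -73 and -11. Further matches of that gene, to the CHR core at -218 and to the CCAAT box at -243 and -198, lie outside the printed bases. Lbr has the CHR core on the reverse strand at -45, where it reads TTCAAA, between CCAAT boxes at -68 and -28. Hmgb3 has TTTGAA at -122, upstream of its CCAAT boxes at -94, -51 and -5. Tmpo has CCAAT boxes at -53 and -21 in promoter 1, and TTTGAA at -28 with TTCCCGC at -83 and -194 in promoter 2. The only match in Lmnb2 was to TTGGCGC, on the reverse strand at -40 in promoter 1. Of the members that rose, Hmga2 has TTCCCGC at -136 and Lmna has CCAAT at -131 in promoter 2. A match describes these letters only, and no binding was measured here.

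Some facts of the arrays bear on the values that follow. Median log2 values of the arrays lay between 4.71 and 4.80, so a value near 5 or below is about that of a typical probe set. The ADR array of lymphoma 1570 had the highest 3′ minus 5′ signal for actin (0.92) and Gapdh (0.92), a measure of RNA integrity whose median over all arrays was 0.37 and 0.03. In lymphoma 9584 the Y-linked gene Eif2s3y stood at 4.74 untreated and 8.61 after ADR, while Kdm5d, also Y-linked, stood at 7.17 and 7.20. Y-linked Uty stood there at 5.61 and 4.68, and X-linked Xist at 5.57 and 5.17. In lymphoma 7050 Kdm5d stood at 5.21 and 3.96. Other lymphomas had shifts too, with Eif2s3y at 3.03 and 4.94 in 5560 and at 2.72 and 4.35 in 3769. In 5043 Xist stood at 11.31 and 11.39 beside Eif2s3y at 5.47 and 5.58. Whether both arrays of 9584 come from 1 tumour cannot be told apart from these values. Calls of the members and several relations are therefore also given without it. Each member's call was the same without lymphoma 1570, without 7050 and without 9584. Without 9584 Hmgb2 stood at -2.01, Tmpo at -1.48, Hmgb3 at -1.45 and Lbr at -1.38. For the marker counts that follow, 15.3% of all genes were called higher and 13.4% lower. Fibroblast markers were higher after ADR in 19 of 20 genes, with a list mean per array of 4.44 to 5.34 untreated and 4.81 to 9.05 after ADR. The member not called was Pdgfrb, at 4.70 and 4.85. Macrophage markers were higher in 9 of 12, with list means of 5.12 to 8.57 and 6.17 to 9.60, and Mrc1 (3.81 and 3.89), C1qa (4.11 and 4.38) and C1qb (4.54 and 5.42) were not called. B-lineage markers were measured throughout, and 4 of 7 were lower, with list means of 8.10 to 9.57 and 7.11 to 10.00. These were Cd22 (-1.37 ± 0.15), Cd79a (-0.72 ± 0.23), Ebf1 (-0.62 ± 0.17) and Pax5 (-0.19 ± 0.07). Pax5, a defining B-cell factor, was dim at 5.59 and 5.40. Cd79b, at 11.31 and 11.04, was not called, nor were Ms4a1 and Blk. Of 7 granulocyte markers 2 were higher, S100a8 (2.08 ± 0.41) and Camp (0.21 ± 0.07), with list means of 3.97 to 4.77 and 4.06 to 5.08. Of 6 endothelial markers 1 was lower, Emcn (-0.23 ± 0.07), with list means of 4.24 to 4.59 and 4.08 to 4.83. No T-cell marker of 6 was called by limma (1 at an unadjusted p under 0.05, Cd2 at -0.48 ± 0.19). List means were 4.97 to 6.00 and 4.97 to 5.89. In these bulk samples fewer cells of a type and less RNA per cell cannot be told apart.

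Lmnb1, the B-type lamin whose loss marks senescence, spanned 7.62 to 9.90 (median 8.89) untreated and 6.66 to 8.24 (median 7.47) after ADR. The groups overlap, but 9 of the 14 ADR arrays lay below every untreated array. Its change was -1.45 ± 0.23 (limma adjusted p = 1.72e-04), from -2.93 in lymphoma 3769 to -0.23 in 2949. Untreated levels differed widely between tumours: 2949 started lowest of all, and 403 started highest and fell by 2.63. Lymphomas 6054 (-0.25) and 5043 (-0.31) were the others with a fall under 0.5. A further probe set fell by 1.83 ± 0.21.

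Lmnb2, the other B-type lamin, spanned 6.13 to 7.47 (median 7.02) untreated and 5.38 to 6.78 (median 6.22) after ADR. Groups overlap over much of the range, with 5 ADR arrays below all untreated ones. The change was -0.71 ± 0.10 (limma adjusted p = 5.05e-05), from -1.40 in lymphoma 3769 to -0.06 in 6054. The second probe set, which is dimmer, fell by 1.25 ± 0.16.

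Lmna, which encodes lamins A and C, went the other way. It spanned 6.57 to 9.73 (median 7.68) untreated and 6.98 to 10.76 (median 9.29) after ADR. Overlap was broad, and only 4 ADR arrays lay above every untreated one. The rise was 1.22 ± 0.23 (limma adjusted p = 9.37e-04), from 2.80 in lymphoma 5560 down to 0.15 in 1570, and lymphoma 1467 had a fall (-0.65). Over all probe sets 13% were called higher and 13.8% lower. Of 5 Lmna probe sets 4 were called higher, with changes from 0.30 to 1.86, and the remaining one changed by 0.01 ± 0.09. The one at 0.30 was barely called (limma adjusted p = 0.0492). Its mean over the 28 arrays was 4.16 and that of the one not called 4.48, both below the array medians.

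The lamins also differed from each other within a lymphoma. Lmnb1 fell further than Lmnb2 in 12 of 14 lymphomas, by -0.74 ± 0.19 (SE; exact two-sided sign-flip test, adjusted p = 0.0022 over 3 pairs of paralogs). Lmnb1 minus Lmna was -2.67 ± 0.42 and below 0 in all 14 (adjusted p = 3.66e-04, from the smallest p that 16384 flips can give). The dimmer Lmnb2 probe set, at -1.25, changed nearly as much as the brightest Lmnb1 probe set. With the mean of all probe sets of each gene, Lmnb1 minus Lmnb2 was -0.66 ± 0.16. Changes of different probe sets can be compressed differently, which the sign-flip test does not measure. Across lymphomas the changes of both B-type lamins went together (Pearson r = 0.73, Spearman rho = 0.71, permutation adjusted p = 0.00844 and 0.0227 over 19 relations). Without lymphomas 3769 and 6054 r was 0.57 and no longer passed (permutation p = 0.054), and it was 0.76 within the 11 lymphomas labelled as reanalysed from an earlier series. Lmnb1 and Lmna were related at r = -0.40 and rho = -0.45 (permutation adjusted p = 0.247 and 0.19), with r = -0.34 without 1467 and 5560 and -0.36 within the 11.

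Both inner membrane proteins fell. Lbr, the lamin B receptor, which tethers heterochromatin and is also a sterol reductase, spanned 10.97 to 11.96 (median 11.66) untreated and 8.38 to 11.29 (median 10.44) after ADR. Of the ADR arrays 12 lay below every untreated one, and those of 5043 and 9584 did not. Its change was -1.30 ± 0.16 (limma adjusted p = 2.19e-05), from -2.59 in lymphoma 5560 to -0.25 in 9584. Lymphoma 5560 had the lowest Lbr level of its group both before and after ADR.

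Tmpo encodes the LAP2 proteins, which bind lamins and chromatin. It spanned 10.06 to 11.07 (median 10.66) untreated and 8.58 to 10.24 (median 9.22) after ADR. Only the ADR array of 9584 reached the untreated range, which it entered at its lower end. The change was -1.39 ± 0.13 (limma adjusted p = 4.31e-06), from -2.26 in lymphoma 2581 to -0.18 in 9584. Of 6 Tmpo probe sets 4 were called lower, with changes from -1.56 to -0.95. At the probe set that changed by -1.56 every ADR array lay below every untreated one. The probe sets not called have means of 4.48 and 4.24 over the 28 arrays, below the array medians. They changed by -0.29 ± 0.11 (limma adjusted p = 0.0517) and -0.08 ± 0.09.

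Among the HMG-box genes Hmgb2, which acts in chromatin of cycling cells, had the largest fall of the members. It spanned 11.45 to 12.62 (median 11.78) untreated and 8.86 to 11.68 (median 9.94) after ADR. The group ranges overlap through 1 array, the ADR array of 9584. The change was -1.87 ± 0.20 (limma adjusted p = 7.82e-06), from -2.68 in lymphoma 2581 to -0.03 in 9584. It ranked 40 among all genes by size of fall. Its other probe sets changed by -1.52 ± 0.19 and -1.84 ± 0.13, and both were called lower. At the one that changed by -1.84 every ADR array lay below every untreated one.

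Hmgb3, a paralog known from blood stem cells, spanned 8.30 to 9.34 (median 8.67) untreated and 6.41 to 8.48 (median 7.36) after ADR. Again 13 ADR arrays lay below every untreated one, the exception being 9584. The change was -1.35 ± 0.14 (limma adjusted p = 7.06e-06), from -2.30 in lymphoma 2949 to -0.12 in 9584. Hmgb2 fell further than Hmgb3 in 12 of 14 lymphomas, by -0.52 ± 0.13 (SE; exact two-sided sign-flip test, adjusted p = 0.0022 over 3 pairs). Their changes were related at r = 0.81 and rho = 0.65 (permutation adjusted p = 0.00253 and 0.0346 over 19 relations), with r = 0.66 without 2949 and 9584, 0.68 without 9584 alone, and 0.56 within the 11, where it was no longer called (permutation p = 0.0727). Hmgb2 minus Hmgb3 was -0.56 ± 0.14 within the 11, and -0.39 ± 0.10 over the 14 with the mean of all probe sets of each gene. The sign-flip test measures the spread between lymphomas only. Changes of different probe sets can be compressed differently, and another Hmgb2 probe set changed by -1.52, nearer to Hmgb3.

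The probe sets that list Hmgb1 with other genes were lower too. Hmgb1 is the HMG-box protein that leaves the nucleus in senescent cells and acts outside the cell as an alarm signal. In a fit over the probe sets with 1 or several genes, all 5 fell, with changes from -1.39 to -1.002. The limma adjusted p-values reached 6.92e-04 at most, where 13.8% of these probe sets were called lower. Of the 5, 4 were lower in 14 lymphomas and the remaining one in 13. What part of this signal belongs to Hmgb1 cannot be told apart from that of Gm21596, and of 4932431P20Rik, which 1 probe set also lists.

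Hmga2, an AT-hook protein of embryonic and transformed cells, had the largest change of the measured members. It spanned 4.90 to 6.01 (median 5.37) untreated and 5.57 to 11.69 (median 8.39) after ADR. Untreated levels began just above the array medians, which were 4.71 to 4.80. All ADR arrays but that of lymphoma 1467 lay above every untreated array. The rise was 3.00 ± 0.39 (limma adjusted p = 3.36e-05), from 0.66 in 1467 to 5.87 in 403, and it ranked 12 among all genes by size of rise. Of 4 Hmga2 probe sets 3 were called higher, by 3.00 to 3.26, and the remaining one, with a mean of 2.86, changed by 0.08 ± 0.07. At those that rose by 3.07 and 3.26 every ADR array lay above every untreated one.

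**Figure D2:**
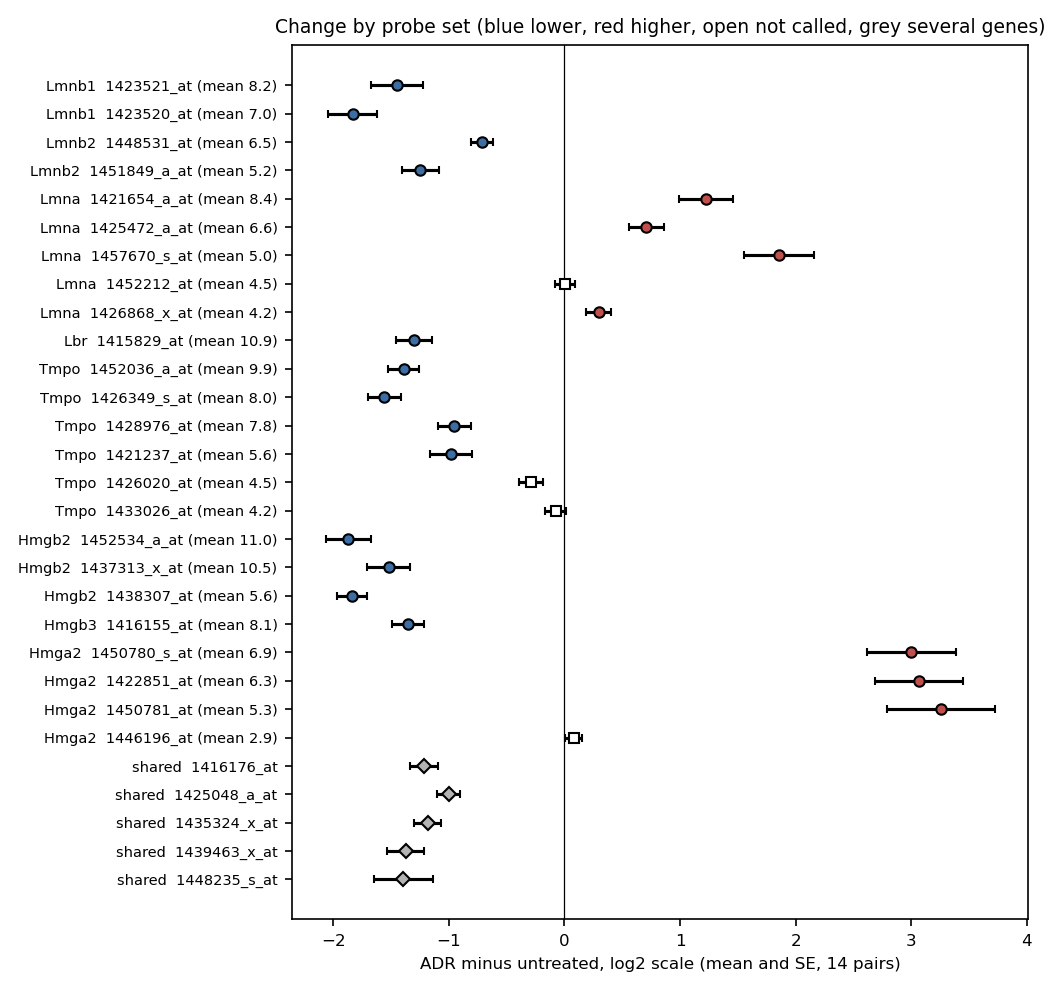
Change after ADR (mean and SE over 14 pairs, log2 scale) of the 24 probe sets of the 8 measured members and the 5 probe sets shared between Hmgb1 and other genes. Filled circles were called lower (blue) or higher (red), open squares were not called, and the number in brackets is the mean log2 level over 28 arrays. The 4 open squares, 1 for Lmna, 2 for Tmpo and 1 for Hmga2, have means between 2.9 and 4.5.

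Lymphomas differed in how far the members moved. The mean fall over Lmnb1, Lmnb2, Lbr, Tmpo, Hmgb2 and Hmgb3 was largest in lymphoma 3769 (-2.06) and smallest in 9584 (-0.29). In 9584 the falls of Lbr, Tmpo, Hmgb2 and Hmgb3 were the smallest of all lymphomas, while Hmga2 rose by 2.38 and Lmna by 1.22. Its proliferation genes also fell least, with a mean change of -0.28 over the 14 measured genes of that list, against -3.61 in 2949, which fell most. The changes of these 6 members were related to each other at r from 0.02 to 0.81 across the 14 lymphomas (median 0.54 over 15 pairs, given as a description). In the 11 lymphomas of the earlier series the Hmgb3 change averaged -1.56, against -0.59 in the other 3 (5043, 9583 and 9584). The difference of 0.97 ± 0.24 was not called over all genes (limma adjusted p = 0.864, 0.0055% of genes called), nor was that of any other member. This comparison was not rerun without 9584, where the Hmgb3 change was -0.12, against -0.61 in 5043 and -1.04 in 9583. Lmnb1 averaged -1.69 in the 11 and -0.58 in the 3, and Hmgb2 -2.11 and -0.97. In the 3 lymphomas alone no member was called by limma, 7 had an unadjusted p under 0.05, and all kept their direction.

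Each member's change was set against that of Col1a2, a collagen gene of fibroblasts that stands here for RNA of the feeder layer. Col1a2 spanned 4.86 to 7.49 (median 5.54) untreated and 5.93 to 11.72 (median 8.996) after ADR, and it was higher in all 14 lymphomas, by 0.38 in 1467 to 6.31 in 403. Its change went with the mean change of the other fibroblast markers at r = 0.99 (rho = 0.95, permutation adjusted p = 4e-05 over 4 lists). Not every marker did so: r was 0.34 for Fstl1, -0.06 for Postn and -0.26 for Lum, and 0.70 to 0.98 for the others. Hmga2 followed Col1a2 closely. The slope was 0.78 ± 0.07 per unit of Col1a2 change (limma adjusted p = 3.59e-06, with 8.58% of genes called for a positive slope). Pearson r was 0.95 and rho 0.95 (permutation adjusted p = 1.9e-04 for each over 19 relations, from the smallest p that 100000 permutations can give). It was 0.93 without 403 and 5560, the lymphomas farthest from the median, and 0.96 within the 11, and 0.11% of all genes had a higher r than Hmga2 (0.83% had r above 0.9). Lmna had a slope of 0.36 ± 0.09 (limma adjusted p = 0.00880), with r = 0.74 and rho = 0.78 (permutation adjusted p = 0.00844 and 0.0103). Without 403 and 5560 its r was 0.85, and within the 11 it was 0.75.

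Members that fell spread widely in their relation to Col1a2. Slopes were called for Lbr (-0.27 ± 0.05, limma adjusted p = 0.00171) and Lmnb1 (-0.30 ± 0.10, limma adjusted p = 0.0399), where 8.28% of genes were called for a negative slope, and not for Lmnb2, Tmpo, Hmgb2 and Hmgb3 (limma adjusted p from 0.0604 to 0.767). Lbr had r = -0.83 and rho = -0.78 (permutation adjusted p = 0.00218 and 0.0103), with r = -0.74 without 403 and 5560 and -0.82 within the 11. Lmnb2 had r = -0.63 and rho = -0.69 (permutation adjusted p = 0.034 and 0.0258), with r = -0.74 and -0.63. Lmnb1 had r = -0.63 and rho = -0.60 (permutation adjusted p = 0.034 and 0.0473). The Lmnb1 relation was no longer called without 403 and 5560 (r = -0.49, permutation p = 0.106) or within the 11 (r = -0.54, permutation p = 0.0883). For Tmpo r was -0.46 and rho -0.38 (permutation adjusted p = 0.176 and 0.28), with r = -0.51 and -0.31. For Hmgb2 r was -0.36 and rho -0.21 (0.305 and 0.679, permutation adjusted), with r = -0.28 and -0.11. Hmgb3 had r = -0.15 and rho = -0.05 (0.803 and 0.88, permutation adjusted), with r = -0.07 without the 2 lymphomas and 0.32 within the 11. Whether the relations of different members differ was not tested.

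**Figure D3:**
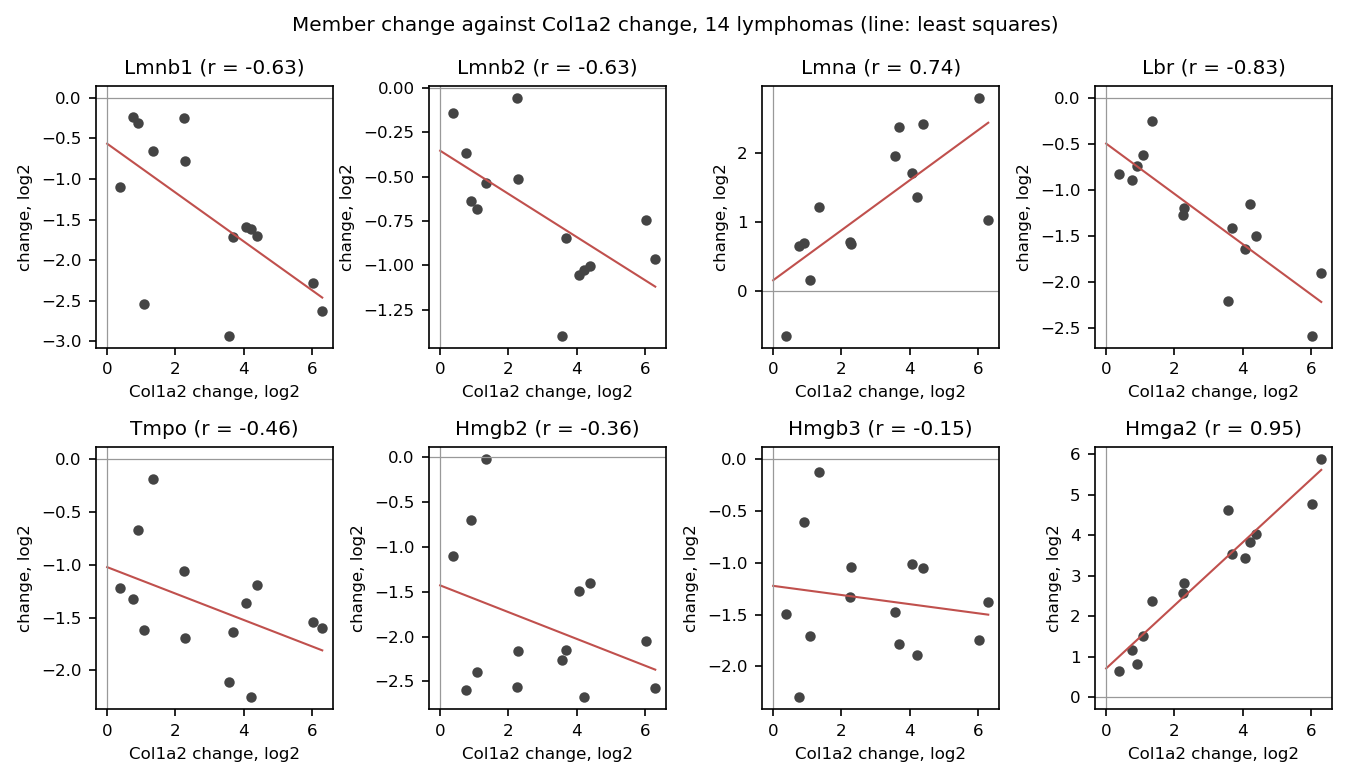
Change of each measured member (vertical, log2 scale) against the Col1a2 change (horizontal, log2 scale), 1 point per lymphoma, n = 14, with the least-squares line. Hmga2 (r = 0.95) and Lmna (r = 0.74) climb with Col1a2, Lbr (r = -0.83) descends, and Hmgb3 (r = -0.15) lies nearly flat below 0.

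In a fit with the Col1a2 change as a covariate, the value at no Col1a2 change was called for 3 of the 8 members, Hmgb2, Hmgb3 and Tmpo, all lower, where 4.58% of genes were called lower and 5.61% higher. That point lies just outside the data, since the smallest Col1a2 change was 0.38. Hmgb3 stood at -1.22 ± 0.26 (limma adjusted p = 0.00866), close to its plain change. Hmgb2 stood at -1.43 ± 0.35 (limma adjusted p = 0.0171) and Tmpo at -1.02 ± 0.23 (limma adjusted p = 0.0101). The remaining members kept their direction without a call. Lbr was at -0.50 ± 0.18 (limma adjusted p = 0.0879), Lmnb1 at -0.56 ± 0.33 (0.342, limma adjusted) and Lmnb2 at -0.35 ± 0.15 (0.149, limma adjusted), so their values were nearer 0 as well as less precise. Lmna was at 0.15 ± 0.30 (limma adjusted p = 0.836). Hmga2 was at 0.71 ± 0.23 (limma adjusted p = 0.0612), and with the mean change of the fibroblast list as covariate in place of Col1a2 it was at 0.80 ± 0.19 and called (limma adjusted p = 0.0159).

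**Figure D4:**
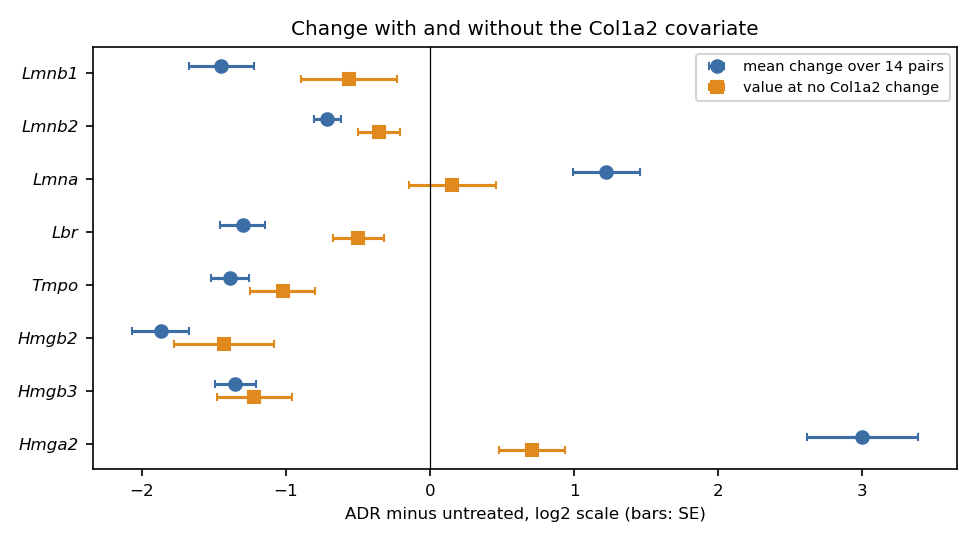
Change after ADR of each measured member over 14 pairs (blue circles) and its value at no Col1a2 change (orange squares), log2 scale, with SE bars. The values for Hmgb3 lie close together (-1.35 and -1.22), while those of Hmga2 (3.00 and 0.71) and Lmna (1.22 and 0.15) lie far apart.

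Levels within a group were compared with Col1a2 as well. Among the ADR arrays the Hmga2 level went with the Col1a2 level at r = 0.90 and rho = 0.88 (permutation adjusted p = 6.4e-04 and 0.0032 over 32 added relations). Lmna did so at r = 0.89 and rho = 0.83 (permutation adjusted p = 9.6e-04 and 0.00912). Without 403 and 1467 both had r = 0.85, and within the 11 they had 0.89 and 0.90. Among untreated arrays, where Col1a2 spans a narrower range, r was 0.27 for Hmga2 and 0.09 for Lmna, with rho of 0.37 and -0.10 (permutation adjusted p = 0.689 and 0.916 for r, 0.487 and 0.896 for rho). Without 5766 and 6054 r was 0.34 and -0.12 there, and 0.27 and 0.06 within the 11. None of the 6 members that fell had a called relation of its level to Col1a2 in either group over the 32 relations. The smallest adjusted p for r was that of Lbr in the ADR arrays (r = -0.64, rho = -0.56, permutation adjusted p = 0.101 and 0.208), where r was -0.69 without 403 and 1467 and -0.55 within the 11. Among untreated arrays Lmnb2 had the smallest adjusted p for rho (r = -0.49, rho = -0.69, permutation adjusted p = 0.296 and 0.085), where r was -0.51 without 5766 and 6054 and -0.50 within the 11. What share of the Hmga2 and Lmna signal comes from feeder cells was not tested. With the mean change of the macrophage list, which also rose, the r of the 8 members lay between -0.36 and 0.11 and none was called (smallest permutation adjusted p = 0.501; none at an unadjusted p under 0.05). Without 2581 and 2949 these r lay between -0.33 and 0.33, and within the 11 between -0.60 (Tmpo) and 0.20. With the B-lineage list r was -0.61 for Lmna and 0.58 for Lbr (permutation adjusted p = 0.163 and 0.183; rho = -0.53 and 0.60). Without 1467 and 1570 these were -0.35 and 0.48, and within the 11 -0.64 and 0.59.

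The changes of Hmgb2, Hmgb3 and Tmpo were related to that of proliferation genes. The proliferation list (Mki67, Top2a, Ccna2 and others) was lower in 14 of 14 measured genes, with a median change of -1.96. Over all genes 13.4% were called lower. The mean change of the list was related to that of Col1a2 at r = 0.11 (rho = 0.09, permutation p = 0.705). Without 403 and 5560 this r was -0.07, and within the 11 it was 0.47. Hmgb3 followed the list at r = 0.79 and rho = 0.64 (permutation adjusted p = 0.00513 and 0.0346 over 19 relations). Without 2949 and 9584, the lymphomas at both ends of the list, its r was 0.46 and no longer called (permutation p = 0.131). It was 0.72 without 2949 alone, 0.67 without 9584 alone (permutation p = 0.00616 and 0.0117) and 0.72 within the 11, which leave out 9584 (permutation p = 0.0124). By rank neither rerun without 1 lymphoma passed (rho = 0.55 in each, permutation p = 0.0539 and 0.0551). Hmgb2 had r = 0.74 and rho = 0.73 (permutation adjusted p = 0.00768 and 0.0227), with r = 0.56 (permutation p = 0.058) without 2949 and 9584 and 0.51 (no longer called) within the 11. Tmpo had r = 0.63 and rho = 0.64 (permutation adjusted p = 0.034 and 0.0346), with r = 0.68 without them and 0.27 (no longer called) within the 11. Without 9584 alone r was 0.58 for Hmgb2 (permutation p = 0.0374) and 0.40 for Tmpo, which was no longer called (permutation p = 0.176). For Lmnb1, Lmnb2, Lbr, Lmna and Hmga2 r lay between 0.05 and 0.14 (permutation adjusted p from 0.803 to 0.857). In 2949, where proliferation genes fell most, the Hmgb3 change was -2.30 and the Lmnb1 change -0.23.

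**Figure D5:**
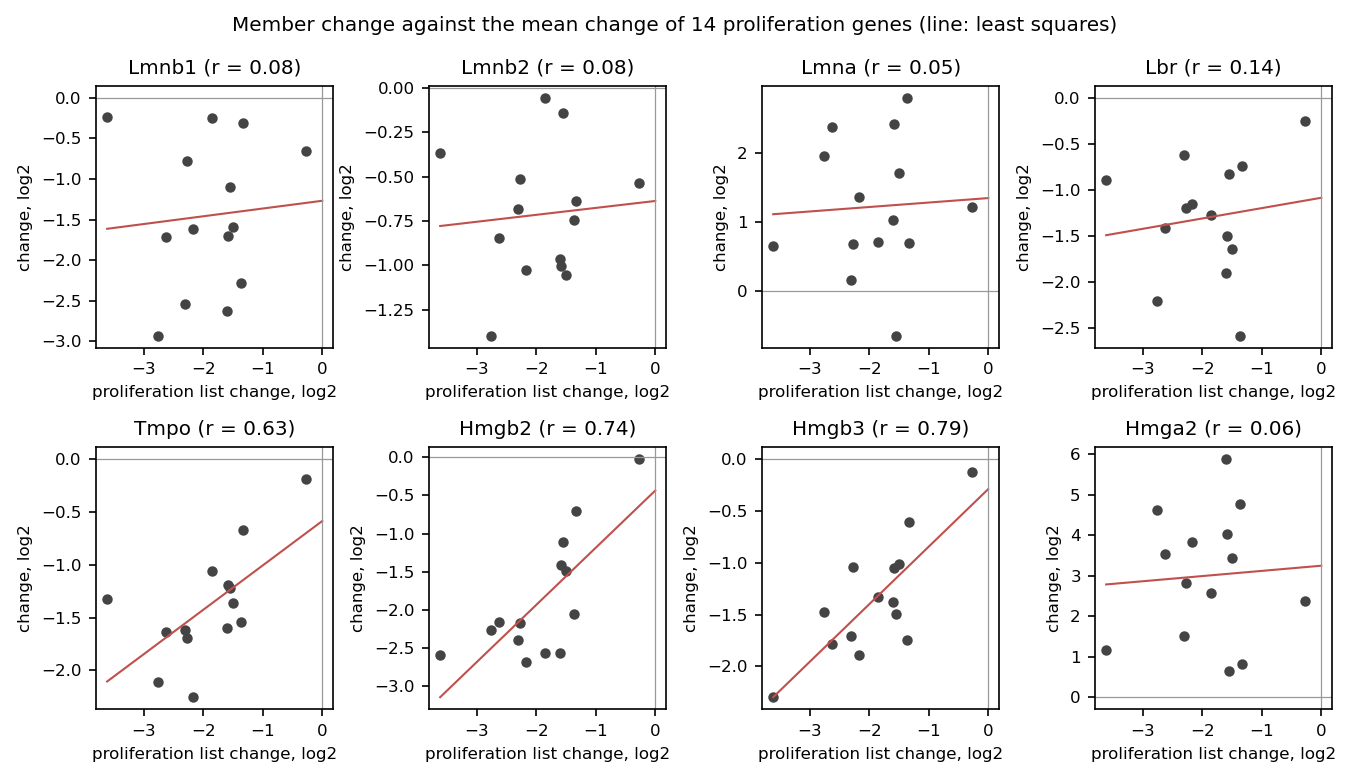
Change of each measured member (vertical, log2 scale) against the mean change of 14 proliferation genes (horizontal, log2 scale), 1 point per lymphoma, n = 14, with the least-squares line. Hmgb3 (r = 0.79), Hmgb2 (r = 0.74) and Tmpo (r = 0.63) climb, and the points at -3.61 (2949) and -0.28 (9584) lie at the ends of the axis.

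Genes whose changes were most like those of 4 members were taken by Pearson r over the 14 lymphomas among 18192 other genes, as a description. For Lmnb1 these were Uchl5 (r = 0.93), Pcyt2 (0.91) and Alkbh8 (0.90), a proteasome-bound deubiquitinase, a phospholipid enzyme and a tRNA modifier. Their own changes were smaller, at -0.73 ± 0.15, -0.33 ± 0.11 and -0.70 ± 0.13. For Hmgb2 they were Gm2824 (0.91), a dim probe set that changed by -0.05 ± 0.07, the centromere factor Mis18a (0.90, changed by -1.20 ± 0.13) and the helicase Ddx59 (0.87). For Lmna they were Itprid2, the transcription factor Bhlhe40 and the intermediate filament gene Vim, each at r = 0.88. Those of Hmga2 were the matrix gene Fbln2 (0.98), the prostacyclin synthase Ptgis (0.97) and the interferon-inducible Ifi202b (0.97), and Fbln2 belongs to the fibroblast list.

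Partners of the lamina at the nuclear envelope moved in both directions. Of 20 measured genes 7 were lower and 5 higher, with a median of -0.12. Over all genes 13.4% were called lower and 15.3% higher, with a median of -0.001. Nrm, which encodes the inner membrane protein nurim, fell by 1.82 ± 0.16 in all 14 lymphomas (limma adjusted p = 2.23e-06) and stood at -2.01 ± 0.29 at no Col1a2 change (limma adjusted p = 0.00149). Falls followed for the LEM-domain nuclease Ankle1 (-1.17 ± 0.16), the kinase Vrk1 (-1.14 ± 0.15) and the pore membrane protein Nup210 (-1.13 ± 0.22). Banf1, Syne3 and Nup153 were the other genes called lower. Genes called higher were Tmem43 (0.79 ± 0.13), an emerin-binding membrane protein, Tor1aip1 (0.72 ± 0.11), which encodes the lamina-associated protein LAP1, Syne1 (0.53 ± 0.09), which encodes nesprin-1, Tor1aip2 (0.31 ± 0.07) and Lemd2 (0.30 ± 0.11). At no Col1a2 change 4.58% of all genes were called lower and 5.61% higher. Of the 20 genes 2 were called lower at that point, Nrm and Ankle1 (-1.001 ± 0.29, limma adjusted p = 0.0377), and 1 higher. That one, Tor1aip1, stood at 1.05 ± 0.17 at no Col1a2 change (limma adjusted p = 0.00291), while Nup210 stood at -0.12 ± 0.27 (limma adjusted p = 0.860) and Vrk1 at -0.58 ± 0.23 (limma adjusted p = 0.132). Emerin (Emd) and the SUN proteins Sun1 and Sun2 were not called, at 0.01 ± 0.07, 0.16 ± 0.11 and 0.04 ± 0.08. Of 5 genes that process prelamins by farnesylation and cleavage, the farnesyltransferase subunit Fntb was lower (-0.26 ± 0.07, limma adjusted p = 0.0137). The protease Zmpste24 stood at 0.18 ± 0.09 and was not called. At no Col1a2 change Zmpste24 was called higher (0.51 ± 0.13, limma adjusted p = 0.0196) and Fntb was not called (-0.36 ± 0.14, limma adjusted p = 0.121).

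Other HMG-domain and HMGN genes were lower in 4 and higher in 1 of 10 measured cases, with a median of -0.04. The shares over all genes were 13.4% lower and 15.3% higher. Hmgn5, a nucleosome-binding protein that unfolds chromatin, fell by 1.75 ± 0.17 in all 14 lymphomas (limma adjusted p = 4.31e-06) and was at -1.09 ± 0.25 at no Col1a2 change (limma adjusted p = 0.0112). The mitochondrial DNA packaging factor Tfam (-0.63 ± 0.08) and Hmgxb4 (-0.42 ± 0.09) fell in all 14. Hmgn1 fell by 0.32 ± 0.08, and Hmgxb3 rose by 0.25 ± 0.06. At no Col1a2 change 4.58% of all genes were called lower and 5.61% higher. Of the 10 genes 2 were called lower at that point, Hmgn5 and Hmgxb4 (-0.54 ± 0.16, limma adjusted p = 0.0432). There 1 was called higher, the ribosomal RNA transcription factor gene Ubtf (0.77 ± 0.13, limma adjusted p = 0.00310), whose plain change was 0.15 ± 0.12. Of 5 genes for receptors and partners of extracellular HMGB1, 3 were higher and 1 lower. The receptor genes Tlr2 (1.73 ± 0.25), Tlr4 (1.13 ± 0.19) and Havcr2 (1.00 ± 0.25) rose and the surface protein gene Cd24a fell by 1.02 ± 0.21, while Ager was at 0.04 ± 0.09. None of these 5 was called at no Col1a2 change, where Tlr2 stood at 1.48 ± 0.46 (limma adjusted p = 0.0505) and Tlr4 at 0.32 ± 0.26. Both Toll-like receptors are also made by macrophages, whose markers rose in the same arrays, and the part of those cells was not tested. Of 7 measured genes of the let-7 circuit that controls Hmga2, limma called 0 (1 at an unadjusted p under 0.05, Igf2bp1 at 0.15 ± 0.05), and the let-7 blockers Lin28a and Lin28b were dim, at 3.17 and 2.52 untreated. At no Col1a2 change 1 of the 7 was called higher, the miRNA-processing enzyme gene Dicer1 (0.47 ± 0.14, limma adjusted p = 0.0487), whose plain change was 0.02 ± 0.10.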

How the data were processed

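Expression was measured on 28 arrays, 14 untreated and 14 ADR. The authors deposited log2 values of 45101 probe sets, made with RMA and Partek 6.5 per the submitters' processing notes. RMA subtracts a background model, equalises the arrays and combines the probes of a set, and differences of dim genes can be compressed. The authors' genome build is not given in the sources used here.

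Probe sets were named with the array annotation of 2016: 34945 had 1 gene, 932 several and 9160 none, and 64 were controls. The brightest probe set per gene left 18193 genes. The limma fit (limma 3.58.1, R 4.3.3, lmFit and eBayes) had lymphoma as a block, with Benjamini-Hochberg adjustment over all genes and a threshold of 0.05. The pairing comes from the lymphoma identifier in the labels: arrays of the same lymphoma deviated together at r from 0.27 to 0.61, against -0.47 to 0.66 (median -0.08) for arrays of different lymphomas. The covariate fit regressed the 14 changes on the Col1a2 change. Correlations used 100000 permutations, and paralog differences 16384 sign flips. Promoter sequences are from RefSeq. The fits were tested on simulated data.

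The members and lists were chosen with earlier results of these data known. Genes named are the members, Col1a2, up to 4 called genes per list with the largest change, those behind counts of 5 or fewer, markers at either end of the scale, and the 3 genes most alike to Lmnb1, Hmgb2, Lmna and Hmga2. Eif2s3y, Kdm5d, Uty, Xist, Fstl1, Postn, Lum, Banf1, Syne3, Nup153, Emd, Sun1, Sun2, Zmpste24, Dicer1, Ubtf, Igf2bp1, Lin28a, Lin28b, Mki67, Top2a and Ccna2 were named after their values were seen. So were Cd22, Cd79a, Ebf1, Ms4a1, Blk, S100a8, Camp, Emcn and Cd2. The relations with the macrophage and B-lineage lists, those of levels, those without 2949 or 9584 alone, those between members within the 11 and the fit of shared probe sets were added after the data were seen. Number of arrays limits precision. Alternatives tried were other probe set rules, scalings, a filter on dim genes, other blocks and subsets of lymphomas. Plots used matplotlib 3.10.9 in Python 3.11.15.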

Additional observations from a re-analysis of the deposited data

How the results depend on the processing

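The direction of all 8 members' changes was kept under every alternative run, and 87 of 104 values kept their call (112 of 112 when 1 lymphoma was left out). Of all genes 5225 were called (2790 higher, 2435 lower) and of the members 2 higher and 6 lower. In the 3 lymphomas outside the earlier series 1 gene was called, 1 higher and 0 lower (limma; 2706 at an unadjusted p under 0.05), with 0 members higher and 0 lower (2 and 5 unadjusted). At no Col1a2 change 1853 were called (1020 higher, 833 lower), with 0 members higher (1 unadjusted) and 3 lower. At no change of the fibroblast list 1874 were called (998 and 876), with 1 member higher and 3 lower. Leaving out 1 lymphoma gave 4501 to 5434 calls (2419 to 2862 higher, 2082 to 2572 lower), with 2 and 6 members each time. With no replicate block in place of the paired fit 3656 genes were called (1933 higher, 1723 lower), and 2 and 6 members.

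Of 48 relations rerun, 35 kept their side of the threshold, 6 lost the call and 7, none of them called, turned sign. With the proliferation list r within the 11 lymphomas was -0.22 for Lmnb1, -0.0051 for Lmnb2 and -0.33 for Lbr, and without 2949 and 9584 it was -0.0788 for Lmna, -0.0311 for Lbr and -0.12 for Hmga2. With Col1a2 it was 0.32 for Hmgb3 within the 11. The 3 paralog differences kept direction and call in 9 of 9 reruns. Some relations were rerun without 2949 or 9584 alone, a choice made after seeing the data. By r and its unadjusted p, those of Hmgb2 and Hmgb3 with the proliferation list and with each other kept their call. Tmpo lost it without 9584 (r = 0.40). By rho Hmgb3 lost its call with the list in both reruns (rho = 0.55, permutation p = 0.0539 without 2949 and 0.0551 without 9584). The relation between Hmgb2 and Hmgb3 also lost it within the 11 (r = 0.56). Signal over background limits the changes of dim probe sets.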
